A study of Mus musculus with 6 samples.

Results

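The secreted Wnt antagonists are proteins that act outside the cell to limit Wnt signaling. The genes described here are *Sfrp1*, *Sfrp2*, *Sfrp4*, *Sfrp5*, *Frzb*, *Dkk2*, *Dkk3* and *Wif1*, and their probes were found by gene symbol. They comprised 11 of the 56605 non-control probes, for 8 genes. RNA came from the hearts of male C57BL/6J *Clk4*-cKO mice, 3 given AAV NEXN-WT and 3 given AAV NEXN-S437E, and each heart had its own single-colour array. NEXN is a protein of the sarcomeric Z-disc, and NEXN-S437E carries glutamate in place of the serine that the kinase CLK4 phosphorylates.

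By their labels and the study's methods, both groups carried floxed *Clk4* alleles and the tamoxifen-inducible recombinase MerCreMer, driven by the α-MHC promoter to remove *Clk4* in cardiomyocytes. An *Esr1* value that bears on the recombinase is given below. By the same sources both received tamoxifen and an intravenous AAV9 vector with a mouse *Nexn* sequence under the CMV promoter, so the groups differed by label in the vector's *Nexn* codon alone. The labels give no age at collection. Mice with intact *Clk4* and mice given a vector without *Nexn* were not analysed here.

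All values below are log2 signals relative to the array's own 75th percentile, so 0 marks the signal at that percentile, and a fold change is NEXN-S437E over NEXN-WT. The level of one probe is not set against that of another, because probes differ in brightness. Probes called well above background in every heart of either group, or of both, were tested, 22998 in all, and their median log2 fold change was 0.09. Taking the percentile over detected probes shifted that median by −0.11. NEXN-WT replicate 1 stood apart from its group, and 66.5% of tested probes had a larger SD among the NEXN-WT than among the NEXN-S437E arrays. One row of the slide held every NEXN-WT array along with NEXN-S437E replicate 1, and another row the other NEXN-S437E arrays.

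An *Esr1* probe differed widely between the groups. MerCreMer contains hormone-binding domains of mouse *Esr1*, and the *Esr1* probe A_55_P2030883, which was not placed in that domain here, read 3.13, 5.82 and 5.21 with NEXN-WT but −5.30, −5.63 and −5.41 with NEXN-S437E, where no array had it well above background. This was a drop of at least 255-fold (adjusted p = 0.00114, limma), from the NEXN-WT mean and the lowest signals called well above background. Of the 6 other *Esr1* probes 4 were not well above background in any heart, A_52_P237077 was at least 1.55-fold lower, and A_65_P17231 had a log2 fold change of −0.58. Whether the hearts labelled NEXN-S437E carried an active recombinase was not tested, and any effect of it cannot be told apart from that of the vector in the comparisons that follow. The *Clk4* probe A_52_P445387 had a log2 fold change of 0.13 (SE, standard error, 0.18), and the *Nexn* probe A_52_P367520 one of 0.02 (SE 0.23), which were within the replicate error. The dim *Clk4* probe A_52_P128262, well above background in 3 of the 6 hearts and not tested, read −3.17, −3.73 and −3.43 with NEXN-WT and −3.04, −2.85 and −3.08 with NEXN-S437E, without overlap, and a further dim *Clk4* probe overlapped. These probes were not placed in exons, so they check neither the deletion nor the source of the *Nexn* transcript.

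Wnt proteins are lipid-modified ligands that bind Frizzled receptors together with the co-receptors LRP5 and LRP6, or with ROR and RYK. In the canonical branch this stabilises β-catenin, which enters the nucleus and acts with TCF/LEF factors. Secreted frizzled-related proteins, which include FRZB, carry a cysteine-rich domain like that of the receptors and can bind Wnt ligands, as can WIF1. Dickkopf proteins such as DKK2 act instead on the LRP co-receptors, whereas DKK3 is a divergent member of that family. In the heart these proteins are made largely by stromal cells and are known from studies of scarring after injury.

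Promoter sequences were taken from the RefSeq table of GRCm38.p6, which held a window for 5 of the 8 genes. They are shown for *Sfrp2* and *Frzb*, whose signals were lower together, for *Sfrp5*, whose signal was higher, and for *Wif1*, which overlapped between the groups. Each runs 5′ to 3′ over the 250 bases before the annotated start. Capitals mark the GC box GGGCGG or the TATA letters TATAAA, read on either strand. The windows are chr3:83766071-83766320 (plus strand) for *Sfrp2*, chr2:80447397-80447646 (minus strand) for *Frzb*, chr19:42202253-42202502 (minus strand) for *Sfrp5* and chr10:121033754-121034003 (plus strand) for *Wif1*.
Sfrp2: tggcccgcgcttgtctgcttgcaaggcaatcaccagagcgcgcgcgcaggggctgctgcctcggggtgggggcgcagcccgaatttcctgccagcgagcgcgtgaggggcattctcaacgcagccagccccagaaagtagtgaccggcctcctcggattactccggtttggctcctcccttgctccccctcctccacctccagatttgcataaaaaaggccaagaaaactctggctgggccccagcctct
Frzb: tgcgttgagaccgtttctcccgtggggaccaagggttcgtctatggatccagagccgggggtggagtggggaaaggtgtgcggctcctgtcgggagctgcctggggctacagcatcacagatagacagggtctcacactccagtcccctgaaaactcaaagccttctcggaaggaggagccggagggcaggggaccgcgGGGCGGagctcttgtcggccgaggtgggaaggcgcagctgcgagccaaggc
Sfrp5: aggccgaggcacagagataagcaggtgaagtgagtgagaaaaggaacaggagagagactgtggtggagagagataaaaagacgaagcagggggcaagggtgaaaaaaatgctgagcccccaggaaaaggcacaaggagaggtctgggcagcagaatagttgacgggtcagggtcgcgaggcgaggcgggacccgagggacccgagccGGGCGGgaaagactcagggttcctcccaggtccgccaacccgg
Wif1: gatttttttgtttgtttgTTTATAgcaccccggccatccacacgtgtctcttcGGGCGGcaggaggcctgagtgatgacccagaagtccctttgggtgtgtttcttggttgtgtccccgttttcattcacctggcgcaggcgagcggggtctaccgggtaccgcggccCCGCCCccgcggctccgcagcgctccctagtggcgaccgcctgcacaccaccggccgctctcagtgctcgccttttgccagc

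None (0) of the 4 windows held the TCF/LEF letters CTTTGAT or CTTTGAA on either strand, nor did the window of *Dkk2*. Of all 32851 promoter windows of that length, 7.5% held them. GGGCGG was found in *Frzb*, *Sfrp5* and *Wif1* but not in *Sfrp2*, against 32.7% of all windows, and TATAAA only in *Wif1* among the 4 shown, against 12.4%. The windows were rich in G and C, with 63.6% for *Sfrp2*, 64.4% for *Frzb*, 59.6% for *Sfrp5* and 62.8% for *Wif1*, where the median of all windows was 52.4%. These are descriptions of letters near the start and say nothing of which factors bind there.

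*Dkk3* was read by 3 probes, one of which is shown because it reads a different transcript. Its letters join stretches that lie 28928 bases further apart in the genome than their own 60 bases account for, at chr7:119265170-119294157 of mm9 on the minus strand, and the array's annotation assigns it to a predicted *Dkk3* transcript.
Dkk3 A_55_P2740153: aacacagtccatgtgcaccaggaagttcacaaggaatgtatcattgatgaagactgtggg
The other *Dkk3* probes lie in unbroken stretches, at chr7:119260828-119260887 for A_52_P220176 and chr7:119259556-119259615 for A_55_P2083609. The remaining member probes also lie in unbroken stretches of 60 bases. No genome of the build mm9 was used here, so none was assigned to an exon, intron or UTR.

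In the hearts given NEXN-S437E, the transcripts of *Sfrp1*, *Sfrp2*, *Frzb* and *Dkk3* gave lower signals than in those given NEXN-WT, by 2.76-fold to 10.2-fold. Their 6 probes had no overlap between the groups, which held in that direction for 9.17% of all tested probes. *Sfrp5* was the exception with a higher signal, *Wif1* overlapped between the groups, *Sfrp4* was near background and *Dkk2* was not detected. At the study's thresholds of a 2-fold change with an unadjusted p of 0.05, 6 of the 7 member probes well above background in every heart were lower, against 1.14% of all such probes and 1.78% of all tested probes, and 0 were higher, against 0.483% of all such probes. The eighth tested probe, of *Sfrp5*, was called higher, against 0.735% of all tested probes, but it passed the filter only through the NEXN-S437E hearts, so its call is given as a description. After Benjamini-Hochberg adjustment over all tested probes, no member probe (0) passed 0.05 in limma, against 0.13% of tested probes lower and 0.0304% higher. The smallest adjusted p was 0.0631, for *Dkk3*. At an unadjusted p under 0.05, 7 of the 8 passed in limma, against 17.2% of all tested probes, and the methods' t-test left 0 after adjustment, both of the members and of all tested probes.

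**Figure D1:**
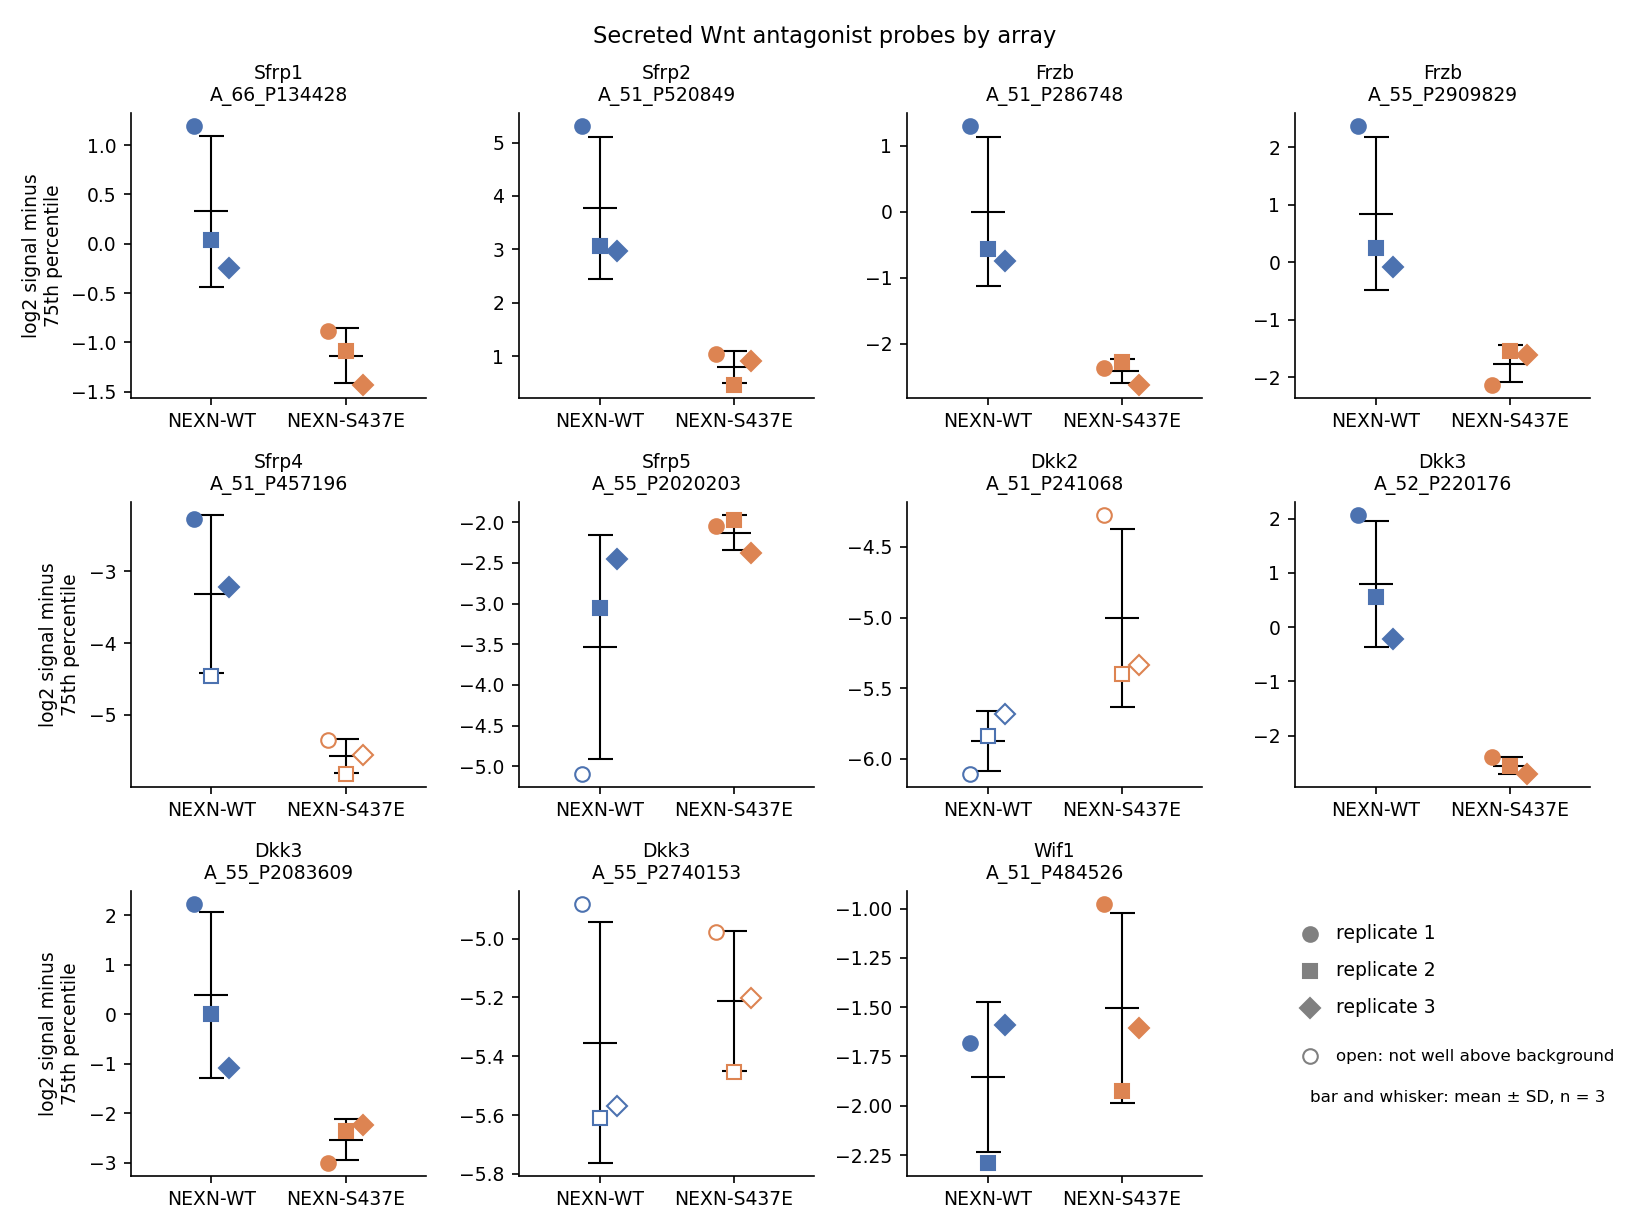
Log2 signal relative to the array's 75th percentile for each of the 11 member probes, by group (NEXN-WT in blue, NEXN-S437E in orange). Each point is 1 heart, open points were not well above background, and the bar and whiskers give the mean ± SD of 3 hearts. In *Sfrp1*, *Sfrp2*, both *Frzb* probes and *Dkk3* probes A_52_P220176 and A_55_P2083609, replicate 1 is the brightest NEXN-WT heart and all 3 NEXN-S437E hearts lie below all NEXN-WT hearts.

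Among the secreted frizzled-related proteins, *Sfrp2* is known both as a Wnt modulator and as an enhancer of procollagen processing. Its probe A_51_P520849 (chr3:83577864-83577923, mm9) read 5.31, 3.06 and 2.96 in the NEXN-WT hearts and 1.03, 0.46 and 0.91 in the NEXN-S437E hearts. The NEXN-WT hearts were all brighter, replicate 1 by far the most, and the NEXN-S437E hearts lay close together. The mean went from 3.78 ± 1.33 to 0.80 ± 0.30 (SD, n = 3 each), which was 7.87-fold lower, with a 95% interval of the log2 fold change from −4.30 to −1.65 (adjusted p = 0.103, limma).

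*Frzb*, also called *Sfrp3*, encodes an antagonist first studied in cartilage and in the early embryo. Probe A_51_P286748 (chr2:80252582-80252641) read 1.30, −0.56 and −0.74 with NEXN-WT and −2.36, −2.27 and −2.62 with NEXN-S437E. The log2 fold change was −2.42 (SE 0.49, 95% interval −3.54 to −1.29, adjusted p = 0.109, limma). The other *Frzb* probe, A_55_P2909829 (chr2:80252127-80252186), read 2.37, 0.25 and −0.09 and then −2.13, −1.55 and −1.61. For this probe the log2 fold change was −2.61 (95% interval −3.93 to −1.28, adjusted p = 0.129, limma). The *Frzb* probes thus gave the same order of groups, with replicate 1 the highest NEXN-WT heart in each.

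*Sfrp1*, which encodes a broadly expressed family member close in sequence to SFRP2, had the smallest of the lower values. Probe A_66_P134428 (chr8:24559438-24559497) read 1.19, 0.04 and −0.24 with NEXN-WT and −0.89, −1.09 and −1.43 with NEXN-S437E. All NEXN-S437E hearts were below all NEXN-WT hearts, though the nearest hearts of the groups were closer than in the other lower probes. The mean went from 0.33 ± 0.76 to −1.13 ± 0.28 (SD, n = 3 each). The log2 fold change was −1.46 (95% interval −2.28 to −0.64, adjusted p = 0.136, limma). The 2-fold and unadjusted threshold was missed with normexp background correction, where the log2 fold change was −0.92, and with the slide row as a block, where it was −1.22 (unadjusted p = 0.0581, limma).

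*Sfrp4*, a family member known from bone and from tissue remodeling, was near the limit of detection. Probe A_51_P457196 (chr13:19724488-19724547) was well above background in NEXN-WT replicates 1 and 3, and not in replicate 2 or in any NEXN-S437E heart. Its values were −2.27, −4.46 and −3.22 with NEXN-WT and −5.35, −5.82 and −5.55 with NEXN-S437E, without overlap. It did not pass the filter with all 6 hearts, so it was not tested, and no fold is given against values at background. Without NEXN-WT replicate 2 it passed through the other NEXN-WT hearts alone. It was then called lower at the study's thresholds against values at background, so that call is given only as a description.

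*Sfrp5*, an antagonist described in adipose tissue, went the other way. Probe A_55_P2020203 (chr19:42272509-42272568) read −5.09, −3.06 and −2.45 with NEXN-WT and −2.04, −1.97 and −2.38 with NEXN-S437E. NEXN-WT replicate 1 was not well above background and lay far below the other hearts, while NEXN-WT replicate 3 was just under the lowest NEXN-S437E heart. The probe passed the filter through the NEXN-S437E hearts alone, being well above background in 2 of 3 NEXN-WT hearts. The fitted log2 fold change was 1.41 (SE 0.59, 95% interval 0.05 to 2.76, adjusted p = 0.276, limma) and rests on the value of NEXN-WT replicate 1 at background. Without NEXN-WT replicate 1 it was 0.63, and the call at the study's thresholds was lost in 12 of 17 alternatives. The groups did not overlap, which held in the same direction for 18.7% of all tested probes. The summed level of 4 adipocyte markers, in units of the 75th percentile, was also higher without overlap, at 0.197, 0.260 and 0.198 with NEXN-WT and 0.345, 0.402 and 0.484 with NEXN-S437E. Of these *Plin1* was at background in all 6 hearts, *Adipoq* was well above it in 1 heart, and 1 was tested, *Lep*, at 0.36 with overlap. Dim probes tended to read higher with NEXN-S437E. Without the filter on them, the median log2 fold change over all 56605 probes was 0.28, against 0.09 over the tested probes. At the study's thresholds 1645 were then higher and 624 lower in limma. The marker sum was not corrected for this shift, and the part of adipocytes in the *Sfrp5* values was not tested.

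Of the Dickkopf genes, *Dkk3* had the largest log2 fold change among the members. Probe A_52_P220176 read 2.07, 0.55 and −0.23 in the NEXN-WT hearts and −2.40, −2.55 and −2.70 in the NEXN-S437E hearts. The NEXN-S437E hearts were nearly equal, with an SD of 0.15, against 1.17 among the NEXN-WT hearts. The mean was 10.2-fold lower with NEXN-S437E, a log2 fold change of −3.34 (SE 0.50, 95% interval −4.49 to −2.19, adjusted p = 0.0631, limma). Probe A_55_P2083609 read 2.23, 0.01 and −1.08 and then −3.00, −2.35 and −2.24. This was 7.55-fold lower, a log2 fold change of −2.92 (SE 0.72, 95% interval −4.58 to −1.25, adjusted p = 0.140, limma).

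The junction probe of *Dkk3* printed above stayed at background in all 6 hearts. Its values ran from −5.61 to −4.88 with NEXN-WT and from −5.45 to −4.98 with NEXN-S437E, with overlap. At background it cannot show whether the predicted transcript differed between the groups, and the *Dkk3* values above are those of the other probes. *Dkk2*, which encodes a ligand of the LRP co-receptors, was likewise not well above background in any heart, at −6.10 to −5.68 with NEXN-WT and −5.40 to −4.27 with NEXN-S437E on probe A_51_P241068 (chr3:131842357-131842416). Neither probe was tested.

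*Wif1* encodes a Wnt-binding protein that does not belong to the frizzled-related family. Probe A_51_P484526 (chr10:120537079-120537138) read −1.68, −2.29 and −1.59 with NEXN-WT and −0.98, −1.92 and −1.61 with NEXN-S437E, and was well above background in all 6 hearts. The groups overlapped and the log2 fold change was 0.35 (95% interval −0.30 to 1.00, adjusted p = 0.524, limma). The interval does not reach a 2-fold decrease, but its upper end reaches a 2-fold increase. The value was 0.09 without NEXN-S437E replicate 1, 0.13 without NEXN-WT replicate 2 and 0.88 with the slide row as a block (unadjusted p = 0.0309, adjusted p = 0.457, limma).

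**Figure D2:**
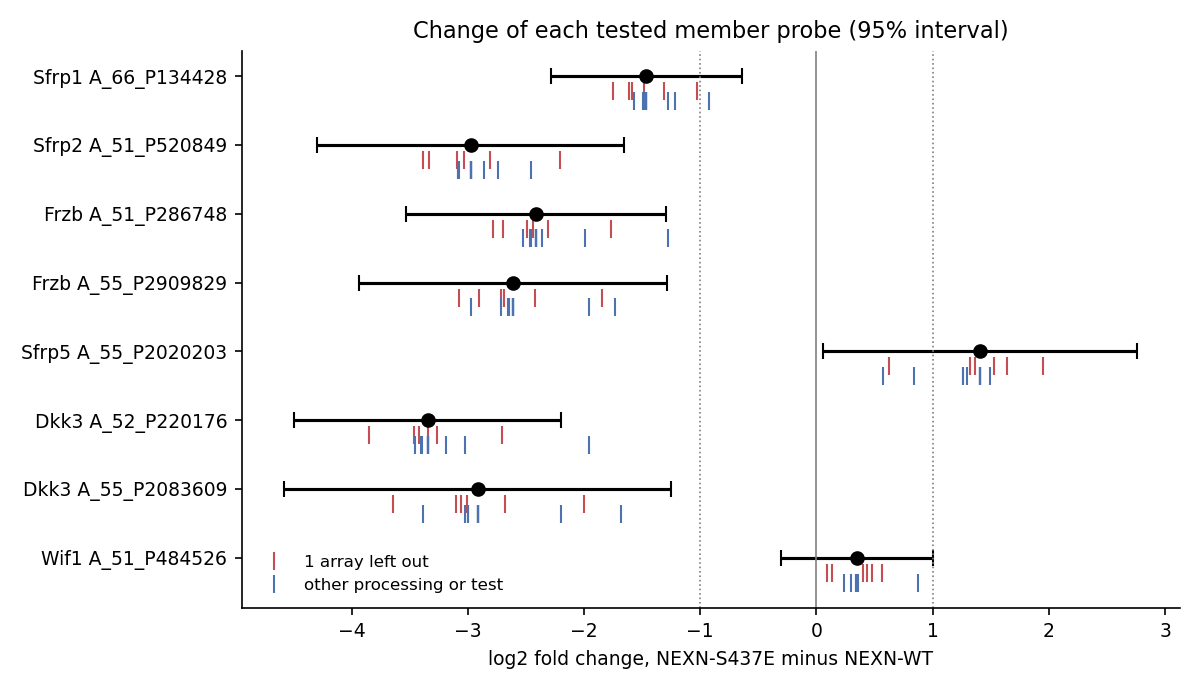
Log2 fold change (NEXN-S437E minus NEXN-WT) of the 8 tested member probes, with the 95% interval from limma as the black line. Red ticks give the value with 1 array left out, blue ticks the value under another processing or test, and dotted lines mark 2-fold. The 6 lower probes stay below 0 at every tick, *Sfrp5* lies between 0.57 and 1.95, and the *Wif1* interval spans 0.

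NEXN-WT replicate 1 set much of the spread. It was the brightest of all hearts for all 6 lower probes, and it exceeded the mean of NEXN-WT replicates 2 and 3 by 1.30 for *Sfrp1*, 2.30 for *Sfrp2*, 1.95 and 2.29 for the *Frzb* probes, and 1.91 and 2.76 for *Dkk3* probes A_52_P220176 and A_55_P2083609. For *Sfrp5* it was below that mean by a difference of −2.33, and for *Wif1* the difference was 0.26. With replicate 1 left out, the log2 fold changes were −1.03 for *Sfrp1*, −2.21 for *Sfrp2*, −1.76 and −1.85 for the *Frzb* probes, and −2.71 and −1.996 for the *Dkk3* probes. All 6 probes still met the study's thresholds without it. The spread was also smaller, and 4 member probes then passed the adjusted threshold, as did 0.548% of all probes tested without it against 0.161% with it, with adjusted p values from limma of 0.0131 for *Sfrp2*, 0.0131 and 0.0319 for *Frzb*, and 0.0141 for *Dkk3* probe A_52_P220176.

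Over the 18 alternatives tried, the log2 fold change ranged from −3.38 to −2.21 for *Sfrp2*, from −2.79 to −1.28 and from −3.07 to −1.73 for *Frzb*, and from −3.85 to −1.96 and from −3.65 to −1.68 for *Dkk3*. These probes met the study's thresholds in all 18. On the normalized values deposited by the authors, the differences were −1.48 for *Sfrp1*, −3.08 for *Sfrp2*, −3.40 for *Dkk3* probe A_52_P220176 and 1.26 for *Sfrp5*. For a single probe, the smallest p that an exact two-sided permutation test of 3 hearts against 3 can give is 0.1.

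Genes with a like pattern were sought among 21099 named or unnamed probes detected in every heart, by the mean absolute difference of log2 values after each probe was centred on its own mean over the 6 arrays. The closest to *Sfrp2* were probes of *Postn*, which encodes the matricellular protein periostin, at 0.16 and 0.18, and one of the growth factor gene *Ptn* at 0.18. Among those nearest to *Dkk3* was the fibrillin gene *Fbn2* at 0.17. For *Frzb* they were *Gxylt2* at 0.08, *Ngef* at 0.17 and the protease inhibitor gene *Timp1* at 0.19. For *Sfrp1* they were *Peg3* at 0.08, a probe without a symbol at 0.09 and the microfibril gene *Mfap2* at 0.10. These likenesses describe 6 arrays that share the group difference and the deviation of NEXN-WT replicate 1.

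The rest of the pathway was read from lists of genes, taking for each gene the tested probe of highest mean. At the study's thresholds 4 of the 6 tested member genes were lower and 1 was higher, and their median log2 fold change was −2.04, or −1.44 without NEXN-WT replicate 1, −1.33 with normexp background correction and −2.61 over the genes detected in every heart, which leave out *Sfrp5*. Over all 13747 tested genes, the share called lower was 2.15%, the share called higher was 0.771% and the median was 0.07.

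Other secreted or surface inhibitors of Wnt signaling were read in the same way. Of 14 on the array, 7 were tested and 0 passed the study's thresholds in limma, with a median log2 fold change of −0.06. With NEXN-WT replicate 2 or 3 left out, 1 was called lower. The extremes were *Shisa3* at −0.86 (well above background in 1 NEXN-S437E heart and thus tested through the NEXN-WT hearts alone) and *Trabd2b* at 0.52. *Trabd2b* encodes a protease that acts on Wnt ligands, and the 0.52 was that of probe A_52_P727235 (unadjusted p = 0.0350, adjusted p = 0.259, limma). Its probe A_66_P126504 was at 0.17 with overlap. *Igfbp4* was at −0.46 without overlap on probe A_52_P257502 and at −0.48 with overlap on probe A_51_P398971. *Dkk1*, *Dkk4*, *Sost*, *Sostdc1*, *Cer1*, *Kremen2* and *Shisa2* were not well above background in any heart.

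Of the Wnt ligands, with the secretion factors *Porcn* and *Wls*, 9 of 21 genes were tested and 0 passed the study's thresholds. Their median log2 fold change was 0.06, and −0.05 with the percentile over detected probes. *Wnt9a* was at −0.59 without overlap. *Wnt9b* was at −0.78 but well above background in 1 NEXN-S437E heart only, having been tested through the NEXN-WT hearts. *Wnt11*, a ligand of the β-catenin independent branch in the heart, was at 0.43 on probe A_51_P503131 and at 0.15 with overlap on probe A_55_P2507365.

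Among 13 tested receptors of 16, *Fzd2* was lower and none was higher, with a list median of −0.12. With the slide row as a block 2 were called lower, the second being *Fzd7* at −1.11, against −0.69 with overlap as reported, and the median was −0.03. The median was −0.28 without NEXN-S437E replicate 1 and stayed negative in all 18 alternatives. *Fzd2* read 1.17, 0.87 and 0.69 with NEXN-WT and −0.35, −0.60 and −0.44 with NEXN-S437E, so that the groups were well apart and replicate 1 stood out less than in the members. The log2 fold change was −1.37, with an SE of 0.17 (adjusted p = 0.0336, limma), and it met the study's thresholds in all 18 alternatives, with adjusted p values from 0.00507 to 0.304. *Ror2* at −0.82 (SE 0.19, adjusted p = 0.133, limma) and *Fzd1* at −0.77 (SE 0.24, adjusted p = 0.200, limma) did not reach 2-fold, though their groups did not overlap. The co-receptors *Lrp5* and *Lrp6* were at −0.12 and −0.23, with overlap.

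The R-spondins and their receptors, which strengthen Wnt signaling at the membrane, had 4 tested genes of 9, 0 past the thresholds and a median of 0.18, with *Lgr6* at 0.54, *Rspo1* at 0.27 and *Lgr4* at −0.17. The intracellular components had 19 tested of 20, 0 past the thresholds and a median of −0.05. *Ctnnb1*, which encodes β-catenin, was at −0.05, *Dvl3* at 0.46, *Bcl9*, a β-catenin co-activator, at 0.39 and *Tle3*, a co-repressor, at −0.67, where other *Tle3* probes ranged up to 0.33.

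Among genes known as targets of canonical Wnt signaling, 9 of 14 were tested, and 2 passed the study's thresholds, both lower. The median of the list was −0.53, but −0.35 without NEXN-WT replicate 1 and −0.18 with normexp background correction. *Axin2*, *Lef1*, *Tcf7*, *Sp5* and *Fosl1* were not well above background in any heart. The lower genes were *Wisp1* and *Wisp2*, which encode matricellular CCN proteins. *Wisp1* read 1.41, −0.46 and −0.68 with NEXN-WT and −2.27, −1.65 and −1.99 with NEXN-S437E, or −2.06 as log2 fold change (SE 0.50, adjusted p = 0.136, limma). Without NEXN-WT replicate 1 it was −1.40, and with normexp background correction −1.19. *Wisp2* was at −1.37 (SE 0.42, adjusted p = 0.192, limma), and lost its call without NEXN-WT replicate 1, with the slide row as a block, where *Nkd1* (well above background in 1 NEXN-S437E heart) was called lower at −1.20, and under the methods' t-test. *Ccnd1*, the cyclin D1 gene, was at 0.54 (adjusted p = 0.200, limma).

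SFRP proteins are also known to act on BMP1, the procollagen C-proteinase. Of these proteinases and their enhancers 3 of 5 genes were tested and 0 passed the study's thresholds, with a median of −0.57, or −0.37 without NEXN-WT replicate 1, where 2 of the 3 were negative. In 5 of the 18 alternatives *Bmp1* was called lower, among them the percentile over detected probes. *Bmp1* was at −0.92 on its brightest probe (SE 0.23, adjusted p = 0.136, limma), *Pcolce* at −0.57 and *Pcolce2* at −0.32.

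**Figure D3:**
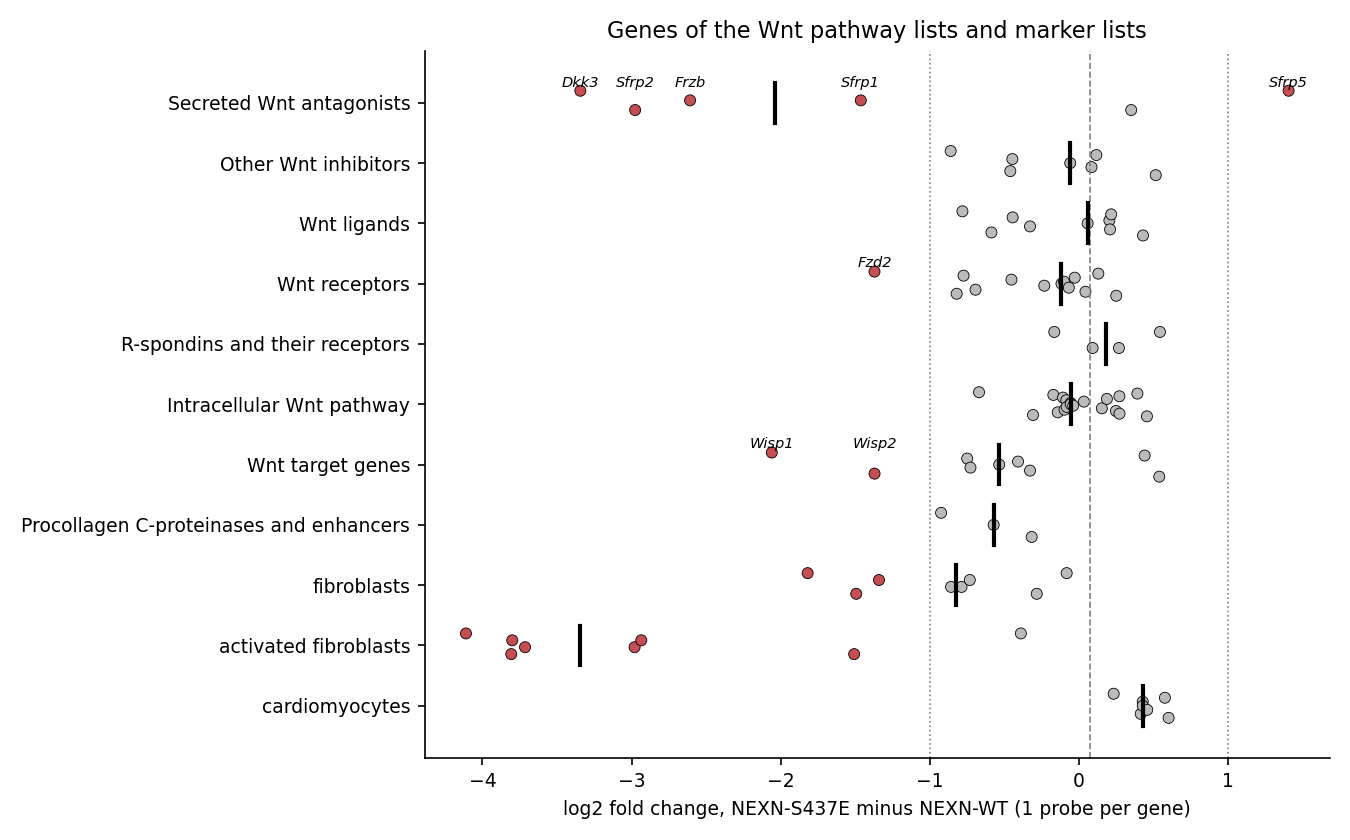
Log2 fold change (NEXN-S437E minus NEXN-WT) of each tested gene in the Wnt lists and in 3 marker lists, 1 probe per gene. Red points met the study's thresholds, black bars are list medians, the dashed line is the median of all tested genes (0.07) and dotted lines mark 2-fold. The members, *Wisp1* among the target genes and the activated fibroblast markers reach below −2, while the ligands, R-spondins and intracellular genes lie within 2-fold.

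Markers of cell types were read beside these values, because in whole hearts fewer cells of a type and less RNA per cell cannot be told apart. The cardiomyocyte markers were all detected, with 7 of 7 tested, 0 past the thresholds and a median log2 fold change of 0.43. Their summed linear level, in units of the 75th percentile, was 1565 to 2280 with NEXN-WT and 2681 to 2759 with NEXN-S437E. Of 8 fibroblast markers, 3 were lower, namely *Col1a1*, *Col1a2* and *Col3a1*, and the summed level was 623 to 951 with NEXN-WT and 450 to 484 with NEXN-S437E. All 8 had negative values, with a median of −0.82. Of the others, *Pdgfra*, *Dpt* and *Lum* were at −0.86, −0.79 and −0.73 without overlap, and *Tcf21* and *Dcn* at −0.28 and −0.08 with overlap.

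Of 8 markers of activated fibroblasts, 7 were lower, with a median log2 fold change of −3.35, *Postn* at −2.98 and *Comp* at −4.11. *Fap* was at −0.39 and did not pass. Their summed level was 294, 64.4 and 54.2 with NEXN-WT and 13.7, 13.1 and 14.4 with NEXN-S437E, and the same sum over the member genes was 51.9, 12.4 and 11.1 with NEXN-WT and 3.83, 2.92 and 3.30 with NEXN-S437E. The signal of the *Sfrp2* probe made up 47.1% to 76.5% of the member sum. This is a share of signal and not of RNA, because probes differ in brightness. Without it the sum was 12.2, 4.06 and 3.28 with NEXN-WT and 1.79, 1.54 and 1.42 with NEXN-S437E. All 3 sums were highest in NEXN-WT replicate 1 and lowest in the NEXN-S437E hearts. The part of these cells in the values of the Wnt antagonists was not tested. T cell markers were also lower, 2 of 3 tested, with a summed level of 1.70 to 2.47 with NEXN-WT and 0.628 to 0.857 with NEXN-S437E. Of the skeletal muscle markers 2 of 3 tested were lower, *Acta1* and *Tnnt3*, with *Myh1* at background and a summed level of 50.8 to 129 with NEXN-WT and 31.9 to 41.4 with NEXN-S437E. Of the chondrocyte markers *Col2a1* was lower among 2 tested, *Acan* and *Chad* were at background, and the summed level was 1.70, 0.676 and 0.542 with NEXN-WT and 0.386, 0.348 and 0.546 with NEXN-S437E. The summed level of the atrial cardiomyocyte markers, of which 1 was tested and 0 passed, was 4.87, 3.14 and 3.43 with NEXN-WT and 3.06, 2.24 and 2.34 with NEXN-S437E, without overlap and with *Bmp10* not well above background in any heart. That of the erythrocyte markers, 4 tested and 0 past the thresholds, was 46.3 to 132 with NEXN-WT and 34.6 to 367 with NEXN-S437E, highest in replicate 1. The part of these cells in the values was not tested. Endothelial, macrophage and smooth muscle markers had 0 past the thresholds, with medians of 0.05, 0.06 and −0.14. The Schwann cell markers had 3 tested, 0 past the thresholds and a median of 0.58, and those of epicardium and mesothelium 2 tested, 0 past the thresholds and a median of 0.48. Their summed levels overlapped between the groups.

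**Figure D4:**
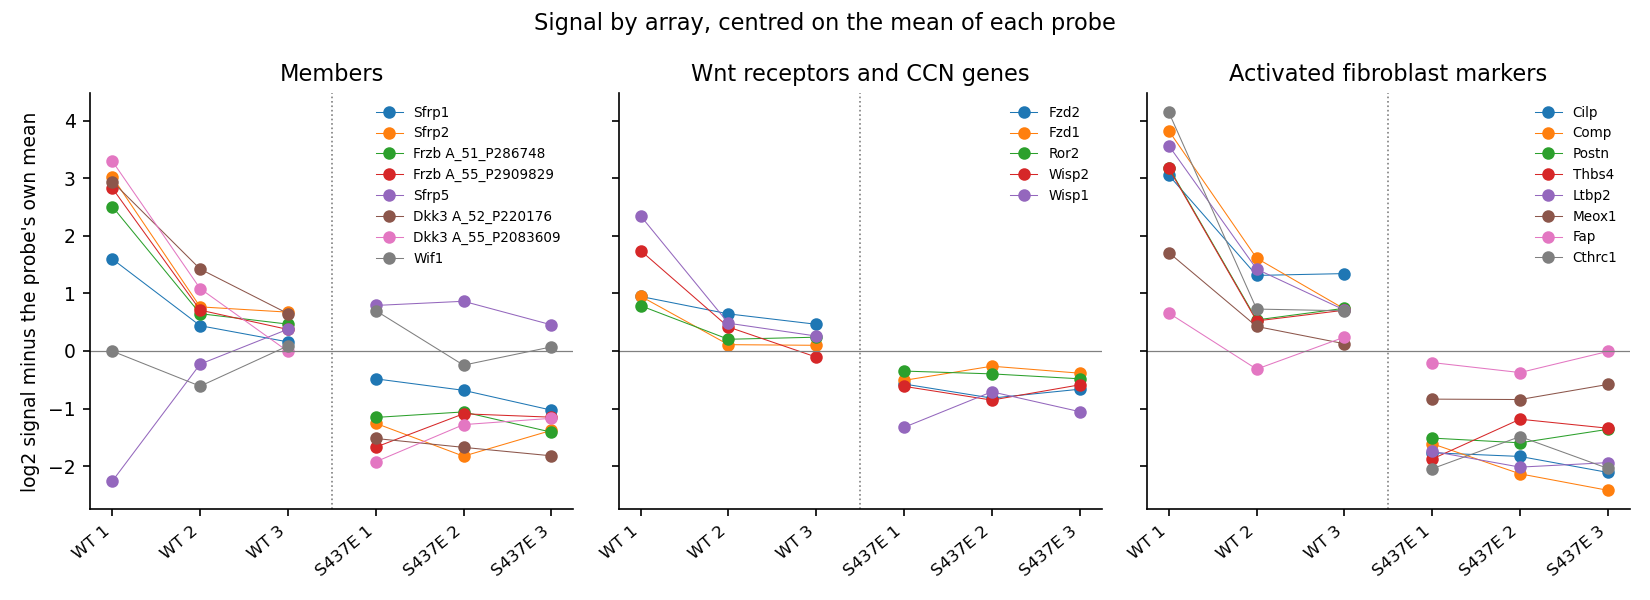
Log2 signal of each heart minus the probe's own mean over the 6 hearts, for the tested members, for named Wnt receptors and CCN genes, and for the activated fibroblast markers. Thin lines only link values of 1 probe, since replicates have no order. The lower members and the fibroblast markers share a high NEXN-WT replicate 1 and low NEXN-S437E hearts, *Sfrp5* is lowest in NEXN-WT replicate 1 (−5.09 before centring), and *Wif1* and *Fap* overlap between the groups.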

How the data were processed

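Hearts from 3 *Clk4*-cKO mice per group were read on SurePrint G3 mouse arrays (Agilent, 8x60K format, v2), all on 1 slide and in 1 scan. The deposited array files hold intensity values on a linear scale, which the authors extracted with Feature Extraction 10.7.1.1, with its background subtraction. The authors also deposited log2 values whose columns share an identical distribution, as after quantile normalization, which is not named in the sources used here. These columns served as an alternative.

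Processed signals were taken on the log2 scale, each array's 75th percentile over non-control spots was subtracted, outlier spots were dropped, and spots of a probe were averaged. From 41.9% to 47.8% of an array's spots were well above background and 0 were saturated. With intensities, the number of arrays limits the precision. The groups were set against each other by lmFit and eBayes of limma (version 3.58.1, R 4.3.3), checked on simulated data, and tables were read by data.table (version 1.17.8). A probe was called by an adjusted p under 0.05 (Benjamini-Hochberg, all tested probes), or by the study's rule of 2-fold and unadjusted p under 0.05. Intervals are 95% intervals from limma. The rule for named genes took every member probe, up to 8 called genes of each pathway list by smallest p or else up to 3, and the 3 nearest probes to each called member. Those of *Sfrp5*, which would rest on values at background, and some other items are not reported here. Other genes of the lists are named as examples. The members and gene lists were chosen with earlier results of these data known.

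Alternatives were quantile normalization, normexp (offset 50), the percentile over detected probes, the authors' values, other filters, outliers kept, the methods' t-test (unpaired, two-tailed), blocks for replicate number and slide row, an intensity trend, array weights and each array left out. Figures were drawn in matplotlib 3.10.9 (Python 3.11.15, pandas 2.3.3, numpy 2.4.6).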

Additional observations from a re-analysis of the deposited data

How the results depend on the processing

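The count of 6 member probes lower at the study's thresholds ran from 5, with normexp background correction and with the slide row as a block, to 7 without the filter on dim probes, and from 6 to 7 with each array left out. The 1 higher probe, *Sfrp5*, was not called (0) with quantile normalization, normexp, the percentile over detected probes, the authors' values, the methods' t-test, dim probes kept, detection required on all 6 arrays, the slide row as a block or array weights, and the count ran from 0 to 1 with each array left out. The count past the adjusted p, 0 as reported with limma, was 1 with an intensity trend (80 over all probes), 6 with array weights (668) and 0 to 4 with each array left out, with 4 when NEXN-WT replicate 1 was left out (127) and 1 when it was replicate 3 (36), against 37 over all probes as reported. No direction reversed among the 8 tested member probes under any alternative. Same-numbered hearts did not deviate together (correlations of −0.16, −0.02 and −0.20). With so few hearts this cannot show whether they were handled in pairs, and the labels name no pairs. With the replicate number as a block, the counts were 6 lower, 1 higher and 0 past the adjusted p, and over all probes 416 lower and 175 higher, against 410 and 169 without it. The seventh lower probe was that of *Sfrp4*, called without the filter and without NEXN-WT replicate 2, where it passed through the other NEXN-WT hearts alone. The NEXN-S437E hearts were at background both times, so no fold is given and the call is only a description. *Dkk2* and *Dkk3* probe A_55_P2740153 were at background in every heart.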
